A study of Mus musculus with 12 samples.

Results

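The expression of 48 genes of mitosis and the spindle was measured in a mouse T cell acute lymphoblastic leukemia line, 8946, across 12 RNA-seq libraries. The genes were named one by one for their function in cell division, and all 48 of them were found among the 23284 gene symbols of the deposited FPKM tables. FPKM scales the fragments of a gene by transcript length and by the mapped fragments of the library, so levels can be compared between genes per length. Every 8946 culture had been co-transduced with a pair of retroviruses and sorted for both of their markers, GFP and NGFR, before RNA was extracted. There were 4 groups of 3 libraries, called here by their sample titles. The combined group carried Zmiz1, a PIAS-like transcriptional coactivator, together with the L1601P mutant of Notch1, a receptor whose cleaved intracellular part switches on target genes. The Notch1-titled group carried the mutant with the empty NGFR vector, and the Zmiz1-titled group carried Zmiz1 with the empty MigR1 vector. The control group carried both empty vectors. The labels say neither whether the 3 libraries of a group came from separate transductions nor whether they came from separate cultures, so the p-values measure only the spread between these libraries.

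The cell line labels of the single-vector groups are exchanged relative to their titles, naming the mutant for the Zmiz1-titled libraries and Zmiz1 for the Notch1-titled ones. The vector genes and the column headers went with the titles. Zmiz1 stood at 47.6 to 51.0 FPKM in combined libraries, 0.194 to 0.221 FPKM in Notch1-titled libraries, 67.7 to 74.4 FPKM in Zmiz1-titled libraries and 0.170 to 0.180 FPKM in control libraries. Notch1 stood at 33.5 to 37.2 FPKM in combined libraries, 22.1 to 42.2 FPKM in Notch1-titled libraries, 1.92 to 2.34 FPKM in Zmiz1-titled libraries and 1.80 to 1.97 FPKM in control libraries. The sum of 7 T cell markers was 2893 to 3015 FPKM in combined libraries, 3087 to 3505 FPKM in Notch1-titled libraries, 2505 to 2750 FPKM in Zmiz1-titled libraries and 3003 to 3081 FPKM in control libraries. The sums of B cell, NK cell, fibroblast and erythroid markers were at most 4.79 FPKM in any library, and Ms4a1, Hbb-b1, Dcn and Ncr1 were listed at 0 in all 12. The sum of 5 myeloid markers was 60.9 to 63.1 FPKM in combined libraries, 53.1 to 60.2 FPKM in Notch1-titled libraries, 93.5 to 101 FPKM in Zmiz1-titled libraries and 99.2 to 103 FPKM in control libraries. Itgam made up nearly all of that sum, and none of the other 4 myeloid markers exceeded 2.09 FPKM. The part of these markers in the results was not tested.

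Mitosis is driven by the kinase CDK1 bound to cyclin B, which is switched on when CDC25 phosphatases remove inhibitory phosphates. Chromosomes are then condensed, attached to spindle microtubules through the kinetochore, held by a checkpoint until all are attached, and separated when the anaphase-promoting complex destroys cyclin B and securin. Many of these genes are transcribed late in the cell cycle under the MuvB complex with B-MYB and FOXM1, which acts through a promoter element called the CHR, often beside CCAAT boxes bound by NF-Y. T cell leukemia lines divide constantly, and Notch1 is known for driving their growth.

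The promoters of 40 of the 48 genes were found in the RefSeq promoter table for GRCm38.p6, which gives 250 bases before and 50 after each start. The CHR letters TTTGAA, or TTCAAA on the other strand, were in the promoters of 28 of these 40 genes (70%), against 20.2% of the 27025 genes in the table. CCAAT, or ATTGG on the other strand, was present for 29 of the 40 (72.5%), against 41.1% of the genes in the table. Both were present for 24 of the 40 (60%), against 7.97%. The variant TTCGAA, which reads the same on both strands, was present for 4 of the 40 (10%), against 1.80%. A CHR match and a variant match cannot overlap, whereas CCAAT can overlap ATTGG by up to 2 bases and a CHR or its variant by 1. The 40 genes had 43 promoters, since 3 genes had more than 1 start, and a match in overlapping promoters of a gene was counted once. Of 37 CHR matches, 27 lay on the strand of the gene and 27 began within 50 bases of a start. A match describes letters in a window and is not evidence of a bound site.

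Promoters are shown for Nuf2, Spc25 and Cdc25b, which are called as different below. Also shown are those of Prc1, which was not called in the main fit, and of the core pair Ccnb2 and Cdk1. Each runs from 100 bases before the start to 30 bases from it, 5′ to 3′ on the strand of the gene, with CHR, variant and CCAAT letters in capitals. The windows in GRCm38.p6 are chr1:169531435-169531564 on the minus strand for Nuf2, chr2:69206184-69206313 on the minus strand for Spc25 and chr2:131186848-131186977 on the plus strand for Cdc25b. They are chr7:80294351-80294480 on the plus strand for Prc1, chr9:70421525-70421654 on the minus strand for Ccnb2 and chr10:69352883-69353012 on the minus strand for Cdk1.
Nuf2: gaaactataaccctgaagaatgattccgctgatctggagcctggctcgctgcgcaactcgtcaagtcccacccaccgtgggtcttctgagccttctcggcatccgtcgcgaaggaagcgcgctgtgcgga
Spc25: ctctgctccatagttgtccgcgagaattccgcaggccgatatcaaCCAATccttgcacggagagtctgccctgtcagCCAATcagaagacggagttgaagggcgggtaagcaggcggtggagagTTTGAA
Cdc25b: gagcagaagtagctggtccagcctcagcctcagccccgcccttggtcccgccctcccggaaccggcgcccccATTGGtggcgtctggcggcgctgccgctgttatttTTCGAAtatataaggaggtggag
Prc1: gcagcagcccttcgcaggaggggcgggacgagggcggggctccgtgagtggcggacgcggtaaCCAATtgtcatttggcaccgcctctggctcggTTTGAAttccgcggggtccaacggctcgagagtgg
Ccnb2: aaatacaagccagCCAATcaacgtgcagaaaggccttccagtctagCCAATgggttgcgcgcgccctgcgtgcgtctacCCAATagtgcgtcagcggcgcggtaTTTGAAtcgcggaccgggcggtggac
Cdk1: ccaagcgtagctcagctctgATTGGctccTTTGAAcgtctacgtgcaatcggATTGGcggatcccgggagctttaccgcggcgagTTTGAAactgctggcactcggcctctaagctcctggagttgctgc
Spc25, Prc1, Ccnb2 and Cdk1 held TTTGAA on their own strand, with CCAAT or ATTGG upstream of it. The shown window of Cdc25b held the variant with 1 CCAAT box in the other orientation, and that of Nuf2 held none of the searched letters. Smc4 and Foxm1, also called below, had no promoter in the promoter table, nor did Aurkb, Cdc25c, Incenp, Kif20a, Spc24 and Tpx2.

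All 48 genes were detected in all 12 libraries. Their means over the 12 libraries ran from 15.8 FPKM for Kif20b, a kinesin of cytokinesis, to 444 FPKM for Top2a, the topoisomerase that untangles sister chromatids. Their median was 78.5 FPKM, against 16.3 FPKM over the 10152 genes that averaged 1 FPKM or more, and the lowest of them stood at the percentile 49.3 of those genes. The highest after Top2a were Smc4, a condensin core subunit, Ube2c, the ubiquitin-conjugating enzyme of the anaphase-promoting complex, at 306 FPKM, and Birc5, the survivin subunit of the chromosomal passenger complex, at 279 FPKM. Means exceeded 100 FPKM for 17 genes and lay under 20 FPKM for 3, which were Cdc25c, Melk and Kif20b. By role, the median level was 174 FPKM for the 5 genes of anaphase, 147 FPKM for the 6 of the cyclin B and CDK1 group, 107 FPKM for the 5 of the checkpoint and 49.4 FPKM for the 6 kinesins. Across the 12 libraries the levels varied little, with a median ratio of highest to lowest library of 1.38 for the 48 genes and 1.44 for all tested genes.

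**Figure D1:**
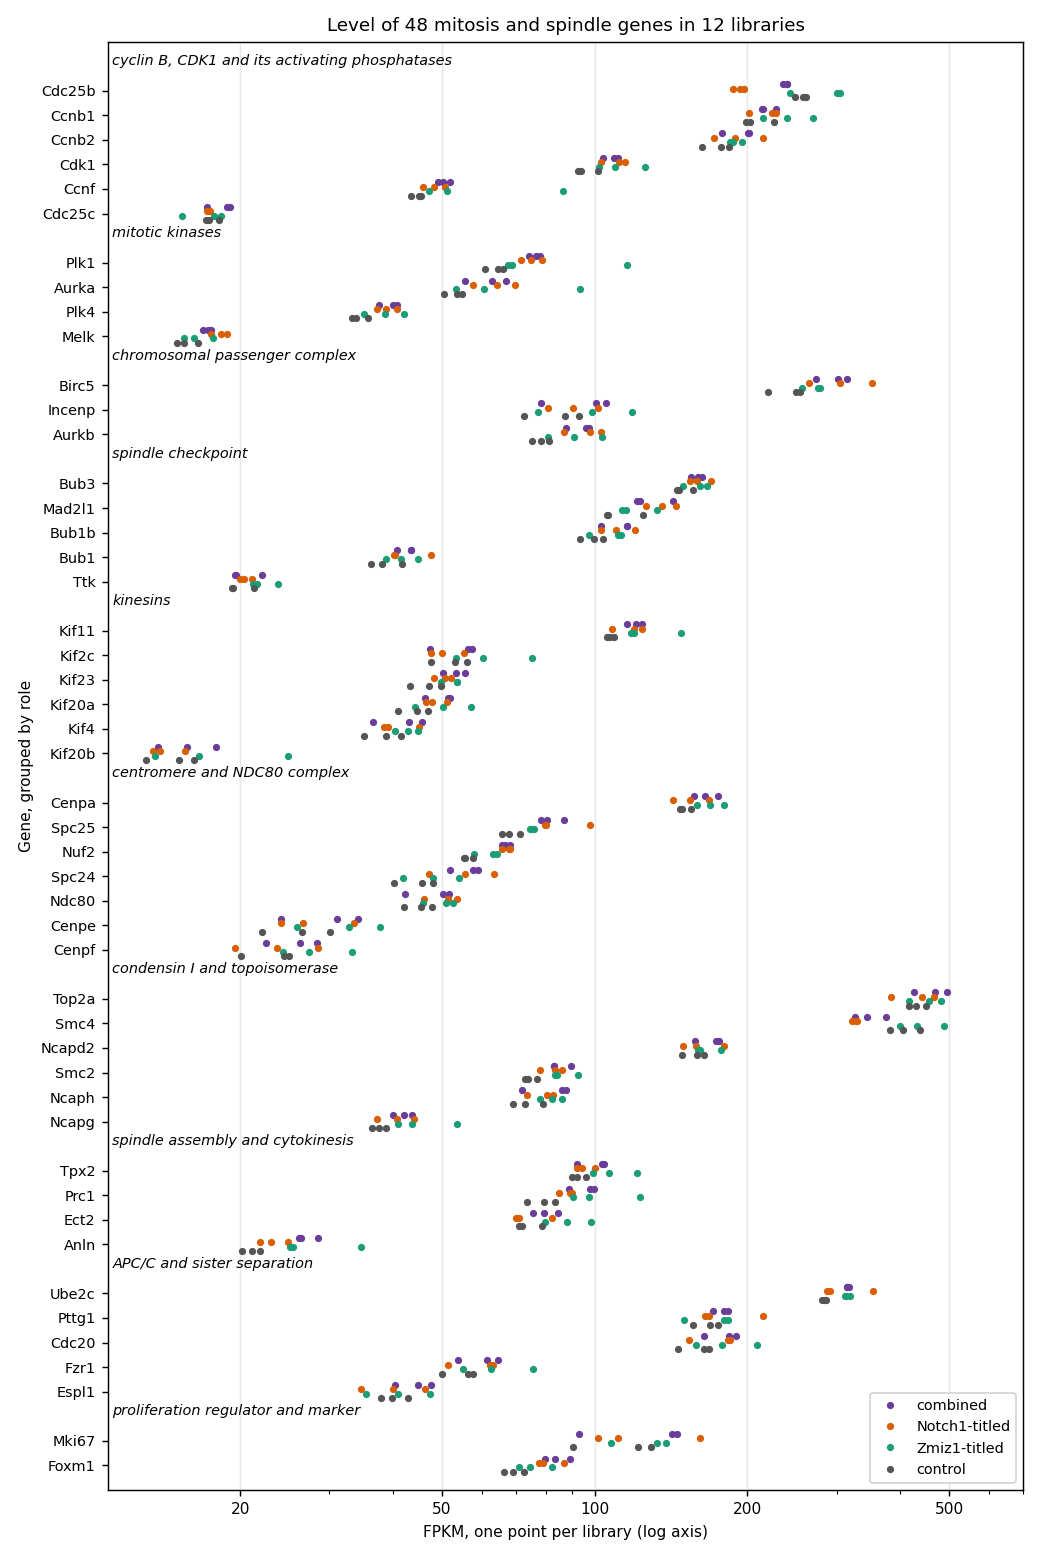
FPKM of each of the 48 genes (rows, grouped by role) in each of the 12 libraries on a log axis, coloured by group. Means over the libraries run from 15.8 FPKM (Kif20b) to 444 FPKM (Top2a), and the libraries of one gene lie close together beside that range.

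Differences were tested with limma on log2(FPKM + 1) across all 10152 genes, with p-values adjusted by Benjamini-Hochberg over all of them and called at 0.05. In bulk RNA, more cells in mitosis and more RNA of a gene per cell cannot be told apart. Few of the 48 genes passed. Against the control, 4 passed in Notch1-titled cells, 2 in combined cells and 0 in Zmiz1-titled cells. The 3 comparisons share the same control libraries and are not independent of each other. The 95% intervals of all 48 genes lay within 1 on the log2 scale in each of the 7 comparisons, so none of these intervals reached a 2-fold change on that scale.

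Notch1-titled against control cells had 2 genes that rose, both kinetochore genes, and 2 that fell, a phosphatase and a condensin subunit. The 4 calls are 8.33% of the 48, against 5.49% of all tested genes called, and the 2 calls in each direction stand beside 3.19% called higher and 2.30% called lower. The fold change was above 0 for 41 of the 48, against 56.7% of tested genes, and its median was 0.12 against 0.02. The groups did not overlap with the Notch1-titled group higher for 16 of the 48, or 33.3%, against 15.8% of tested genes, and with it lower for 2, against 10.3%. The count of 4 was 7 without Zmiz1-titled replicate 2, 0 without control replicate 1 or control replicate 3, 3 without Zmiz1-titled replicate 1 or Notch1-titled replicate 2, 4 without Notch1-titled replicate 1 and 2 without any one of the other 6 libraries.

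Cdc25b, which activates CDK1 at the entry to mitosis, lies at chr2:131186949-131198497 on the plus strand in GRCm38. It had 235, 239 and 239.8 FPKM in combined libraries, 187, 194 and 197 FPKM in Notch1-titled libraries, 299.8, 243 and 304 FPKM in Zmiz1-titled libraries, and 257, 248 and 261 FPKM in control libraries. The 3 Notch1-titled libraries were the lowest of the 12 and overlapped no other group. In Notch1-titled cells it fell by 0.41 on the log2 scale relative to the control (standard error 0.08, limma adjusted p = 0.0123), and by 0.54 relative to Zmiz1-titled cells (adjusted p = 0.00130). The first call was lost without control replicate 1 (adjusted p = 0.0510) or control replicate 3 (adjusted p = 0.0598). In combined cells its difference from the control was -0.10 (95% interval -0.27 to 0.07, adjusted p = 0.564). An exon of Spef1 overlaps it by 92 bases on the opposite strand, and the TruSeq mRNA kit does not mark strand, so reads there cannot be told apart.

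Smc4, which with Smc2 forms the ATPase core of condensin, lies at chr3:69004738-69034623 on the plus strand in GRCm38. It had 326, 345 and 376 FPKM in combined libraries, 327, 329 and 322 FPKM in Notch1-titled libraries, 399.7, 489 and 432 FPKM in Zmiz1-titled libraries, and 381, 405 and 437 FPKM in control libraries. Both groups with the Notch1 mutant lay below both groups without it, with no overlap. In Notch1-titled cells it fell by 0.32 relative to the control (adjusted p = 0.0497) and by 0.43 relative to Zmiz1-titled cells (adjusted p = 0.00768). The call against the control stood just under the threshold and held in 2 of the 12 fits that each left out 1 library, with adjusted p from 0.0191 to 0.190. It held only without Zmiz1-titled replicate 1 or 2. With all libraries it was lost without the filter on low values (adjusted p = 0.0710) and with a filter at 5 FPKM (adjusted p = 0.0516). The call was also lost when only the Notch1-titled and control groups were fitted. In combined cells its difference from the control was -0.23 (95% interval -0.41 to -0.04, adjusted p = 0.159). Its partner Smc2 had 83.2, 83.3 and 89.7 FPKM in combined libraries, 86.4, 83.5 and 77.9 FPKM in Notch1-titled libraries, 84.2, 92.9 and 83.4 FPKM in Zmiz1-titled libraries, and 73.8, 72.7 and 77.0 FPKM in control libraries. The ratio of Smc4 to Smc2 within a library was therefore 3.92 to 4.19 in combined libraries, 3.78 to 4.14 in Notch1-titled libraries, 4.75 to 5.26 in Zmiz1-titled libraries and 5.17 to 5.68 in control libraries. That pair was chosen after its values were seen and carries no test.

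Nuf2, a subunit of the NDC80 complex that grips microtubules, lies at chr1:169497934-169531464 on the minus strand in GRCm38. It had 66.6, 65.6 and 68.0 FPKM in combined libraries, 67.9, 65.6 and 68.0 FPKM in Notch1-titled libraries, 64.2, 57.8 and 63.1 FPKM in Zmiz1-titled libraries, and 55.4, 57.6 and 55.5 FPKM in control libraries. The 3 control libraries were the lowest of the 12. It rose by 0.25 in combined cells (adjusted p = 0.0178) and by 0.25 in Notch1-titled cells (adjusted p = 0.0176), and its difference in Zmiz1-titled cells was 0.13 (adjusted p = 0.302). In Notch1-titled cells the call was lost without control replicate 1 (adjusted p = 0.0679) or control replicate 3 (adjusted p = 0.0808), and after quantile normalization (adjusted p = 0.0541). In combined cells it was lost without control replicate 1 (adjusted p = 0.0703), control replicate 3 (adjusted p = 0.0783), or any combined library (adjusted p from 0.0566 to 0.0779). The call in combined cells was also lost after quantile normalization.

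Spc25, another subunit of that complex, lies at chr2:69193895-69206194 on the minus strand in GRCm38. It had 80.6, 78.5 and 86.9 FPKM in combined libraries, 79.9, 80.1 and 98.0 FPKM in Notch1-titled libraries, 74.7, 75.8 and 75.4 FPKM in Zmiz1-titled libraries, and 65.7, 67.8 and 71.1 FPKM in control libraries. It rose by 0.33 in Notch1-titled cells (adjusted p = 0.0390), and its difference in combined cells was 0.26 (adjusted p = 0.0850). Notch1-titled replicate 3 was its highest library, and without it the difference was 0.23 (adjusted p = 0.0613). The call held in 3 of the 12 fits that each left out 1 library, with adjusted p from 0.0345 to 0.136 over the 12. It held when the library left out was Notch1-titled replicate 1, Notch1-titled replicate 2 or Zmiz1-titled replicate 2. The call was also lost after quantile normalization and when only the Notch1-titled and control groups were fitted. The complex's other subunits did not pass in that comparison, with differences of 0.30 for Spc24 (adjusted p = 0.204) and 0.16 for Ndc80 (adjusted p = 0.407).

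**Figure D2:**
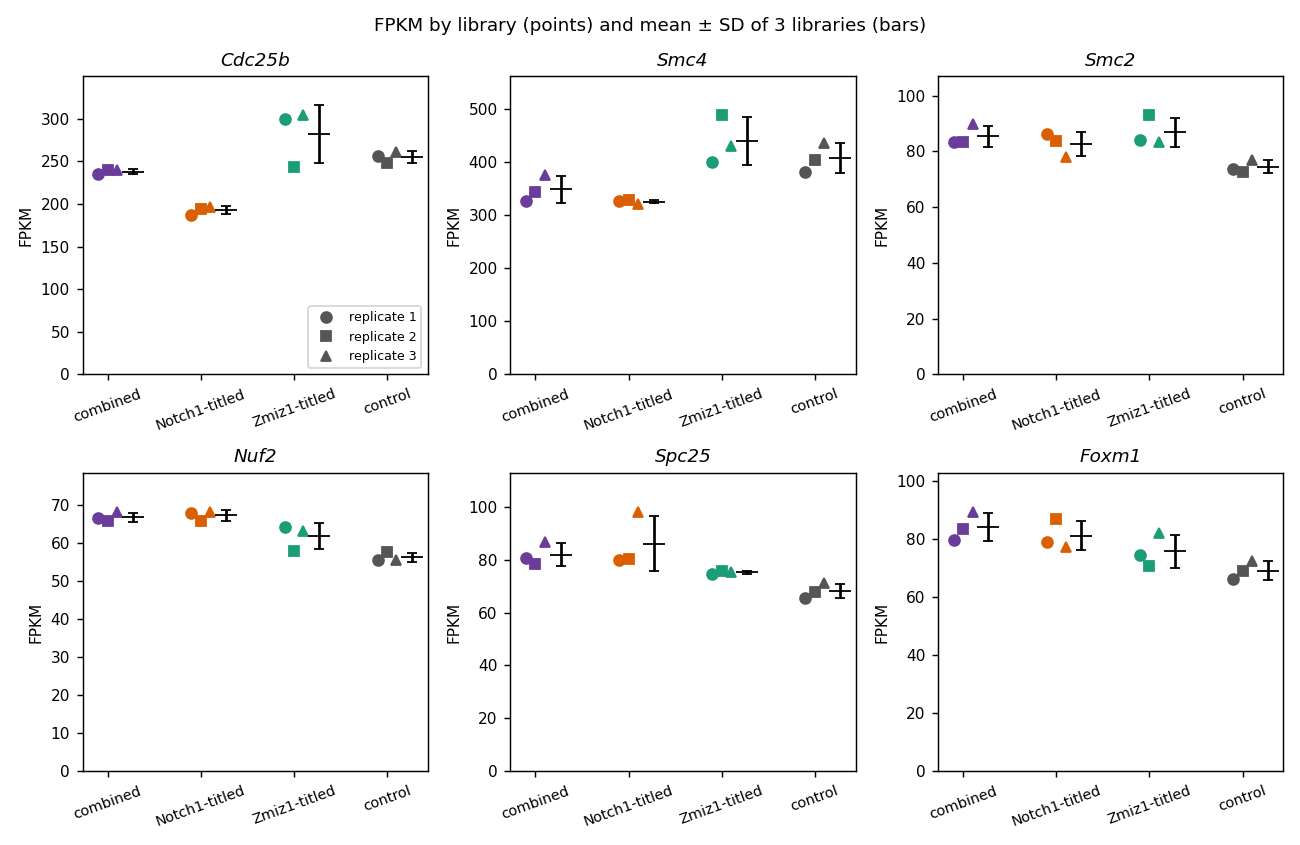
FPKM of 6 genes by library (points, shaped by replicate number) with mean and SD of 3 libraries (bars), axes from 0. Cdc25b is lowest in the Notch1-titled libraries (187 to 197 FPKM), Smc4 is lower in both groups with the Notch1 mutant, and Nuf2 is lowest in the control libraries (55.4 to 57.6 FPKM).

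Combined against control cells had 2 genes that rose, Nuf2 and Foxm1, and 0 that fell, or 4.17% of the 48 against 6.46% of tested genes called, with 3.97% called higher and 2.49% called lower. The fold change was above 0 for 46 of the 48, against 56.5% of tested genes, with a median of 0.15. The combined libraries lay wholly above the control for 20 genes, or 41.7%, against 20.1% of tested genes, and wholly below for 2, Cdc25b and Smc4, against 13.5%. The count of 2 was 6 with Zmiz1-titled replicate 2 left out and 4 with Notch1-titled replicate 3 left out. It was 1 without control replicate 2, Zmiz1-titled replicate 1 or Notch1-titled replicate 1, and 0 without control replicate 1, control replicate 3 or any combined library. Foxm1, the transcription factor of late cell cycle genes, lies at chr6:128362967-128376146 on the plus strand in GRCm38. It had 79.8, 83.6 and 89.4 FPKM in combined libraries, 79.1, 86.9 and 77.5 FPKM in Notch1-titled libraries, 74.4, 70.9 and 82.2 FPKM in Zmiz1-titled libraries, and 66.1, 69.1 and 72.4 FPKM in control libraries. Exons of Tex52 and Gm44596 overlap it by 144 and 97 bases on the same strand. It rose by 0.28 in combined cells (adjusted p = 0.0481), and its difference was 0.23 in Notch1-titled cells (adjusted p = 0.113). The combined call held in 4 of the 12 fits that each left out 1 library, with adjusted p from 0.0278 to 0.183. It held when the library left out was replicate 2 or 3 of either single-vector group. With all libraries it was lost with a pseudocount of 0.1 (adjusted p = 0.0505), with no filter on low values (0.0525), with a filter at 5 FPKM (0.0548), with median ratio scaling (0.0625) and after quantile normalization (0.188).

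Zmiz1-titled against control cells had 0 of the 48 called by limma, against 2.11% of tested genes, and 15 at p under 0.05 before adjustment, against 12.8%. Each of those 15 was higher in Zmiz1-titled cells, against 6.09% of tested genes. The smallest adjusted p was 0.108, for Prc1, which bundles the microtubules of the central spindle. It had 90.6, 123 and 97.5 FPKM in Zmiz1-titled libraries and 73.4, 79.6 and 83.4 FPKM in control libraries, a difference of 0.38 (95% interval 0.16 to 0.60). Exons of Rccd1 overlap Prc1 by up to 670 bases on the opposite strand, so reads there cannot be told apart. Anln, the anillin of the cleavage furrow, had 25.4, 34.5 and 25.0 FPKM in Zmiz1-titled libraries and 21.1, 20.1 and 21.8 FPKM in control libraries, a difference of 0.40 (95% interval 0.16 to 0.64, adjusted p = 0.111). Without Zmiz1-titled replicate 2 the difference was 0.25 for Prc1 (adjusted p = 0.143) and 0.25 for Anln (adjusted p = 0.0975). The fold change was above 0 for 47 of the 48, against 50.5% of tested genes, with a median of 0.16 against 0.00, and the Zmiz1-titled libraries lay wholly above the control for 17, or 35.4%, against 8.75%. Without Zmiz1-titled replicate 2, the fold change was above 0 for 48 of the 48, against 49.3% of tested genes, with a median of 0.13. The count at an unadjusted p under 0.05 was then 10 of the 48, against 12.6% of tested genes.

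**Figure D3:**
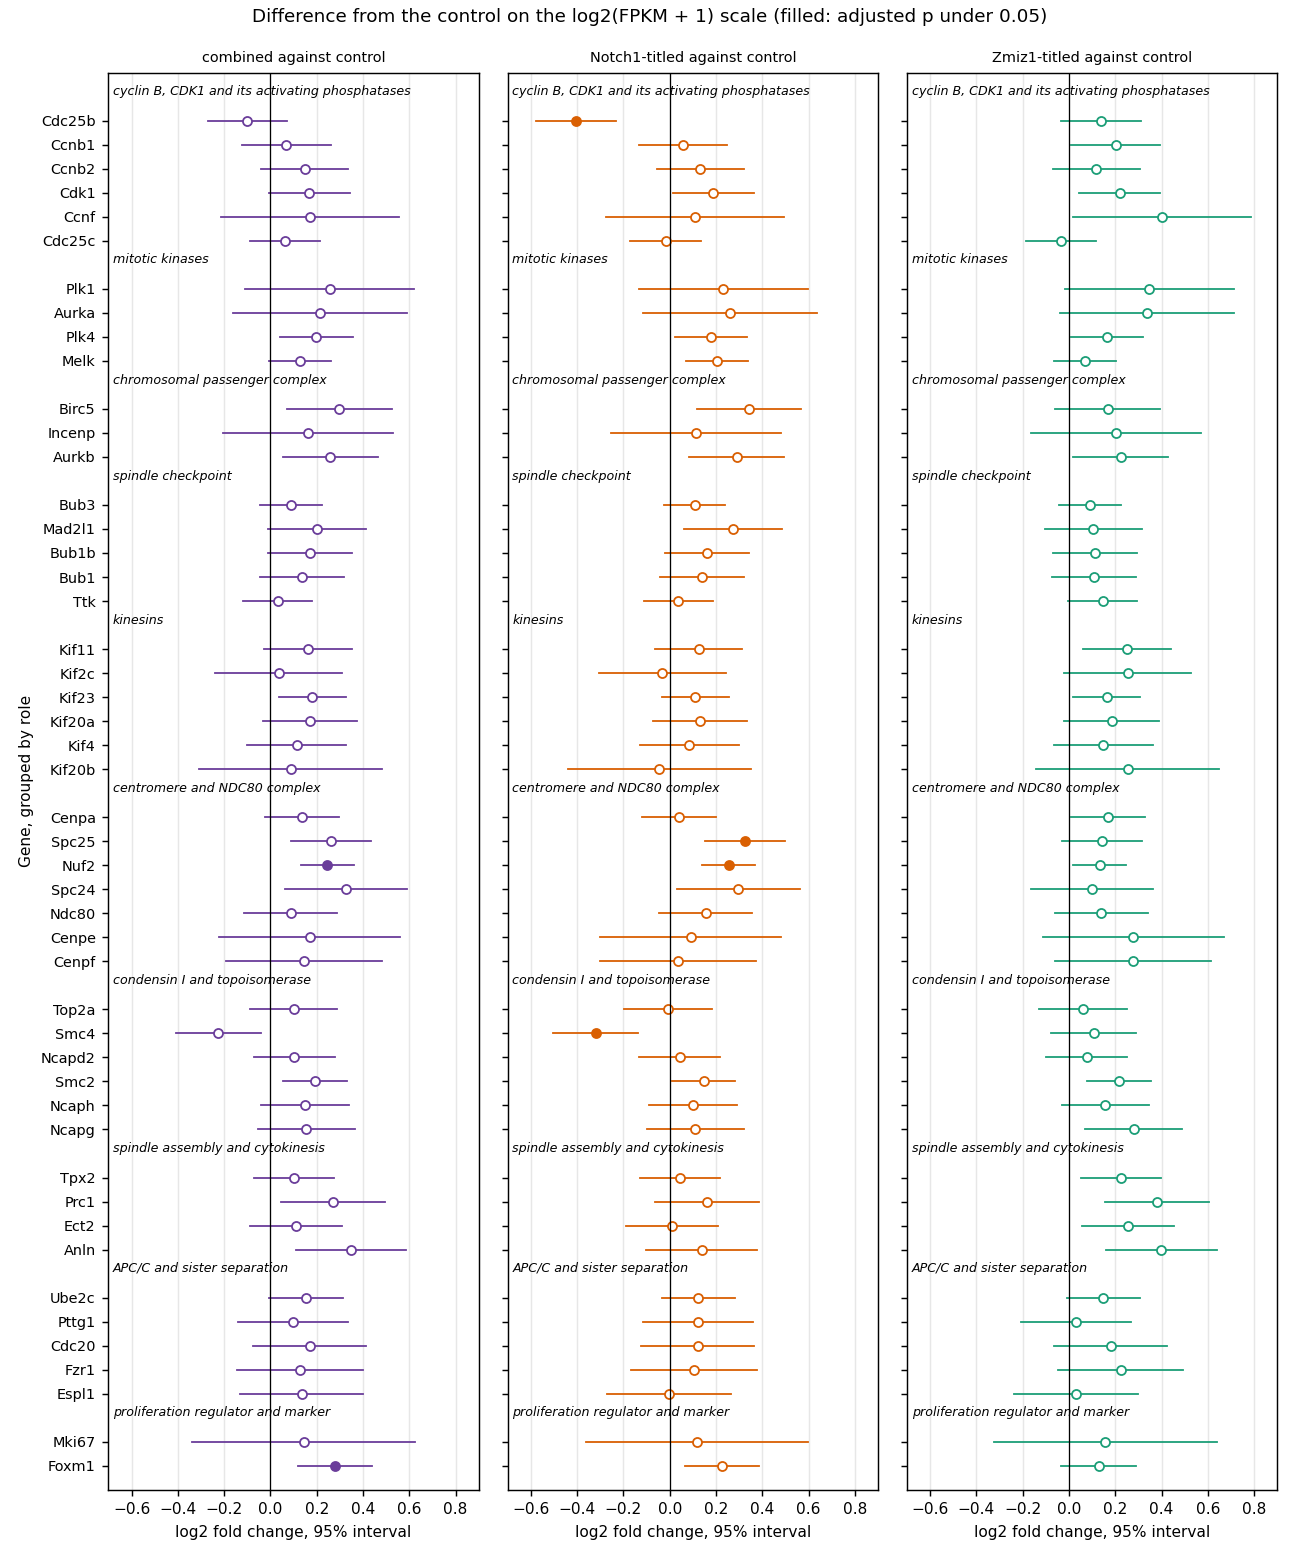
Difference from the control on the log2(FPKM + 1) scale with its 95% interval for each of the 48 genes, in combined, Notch1-titled and Zmiz1-titled cells. Filled points passed an adjusted p of 0.05: Nuf2 and Foxm1 in combined cells, Nuf2, Spc25, Cdc25b and Smc4 in Notch1-titled cells, and 0 genes in Zmiz1-titled cells.

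Over all 48 genes there were 12 at an unadjusted p under 0.05 in combined cells, against 19.1% of tested genes, and 13 in Notch1-titled cells, against 18.8%. The counts by role that follow are to be read against these shares and the 12.8% in Zmiz1-titled cells. Of 7 centromere and NDC80 genes, with Nuf2 and Spc25, there were 3 in combined, 3 in Notch1-titled and 2 in Zmiz1-titled cells. Of 6 condensin and topoisomerase genes, with Smc4, there were 2 in combined, 2 in Notch1-titled and 2 in Zmiz1-titled cells. Of Foxm1 and Mki67 there were 1 in combined, 1 in Notch1-titled and 0 in Zmiz1-titled cells. In the cyclin B and CDK1 group, the 5 genes other than Cdc25b had 0 calls by limma against the control. At an unadjusted p under 0.05, its 6 genes with Cdc25b had 0 in combined, 2 in Notch1-titled and 3 in Zmiz1-titled cells. Without Zmiz1-titled replicate 2 the count in Zmiz1-titled cells was 2. Cdk1, the kinase itself, had 111, 109 and 104 FPKM in combined libraries, 112, 103 and 115 FPKM in Notch1-titled libraries, 109.7, 126 and 102 FPKM in Zmiz1-titled libraries, and 102, 94.1 and 92.6 FPKM in control libraries. Its differences from the control were 0.17 in combined cells (95% interval -0.01 to 0.34), 0.19 in Notch1-titled cells (0.01 to 0.36) and 0.22 in Zmiz1-titled cells (0.04 to 0.39), or 0.14 without Zmiz1-titled replicate 2. Ccnb1, the main cyclin B, differed from the control by 0.07 in combined cells, 0.06 in Notch1-titled cells and 0.20 in Zmiz1-titled cells (0.12 without Zmiz1-titled replicate 2), and Ccnb2 by 0.15 in combined cells, 0.13 in Notch1-titled cells and 0.12 in Zmiz1-titled cells. Cdc25c, the other phosphatase, had intervals of -0.09 to 0.21 in combined cells, -0.17 to 0.13 in Notch1-titled cells and -0.19 to 0.12 in Zmiz1-titled cells, all of which include 0.

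The 4 mitotic kinases had 0 calls by limma in any comparison with the control. At an unadjusted p under 0.05 there were 1 in combined, 2 in Notch1-titled and 1 in Zmiz1-titled cells (0 without Zmiz1-titled replicate 2). Their median difference from the control was 0.21 in combined, 0.22 in Notch1-titled and 0.25 in Zmiz1-titled cells. Without Zmiz1-titled replicate 2 the Zmiz1-titled median was 0.10, with Plk1 at 0.09 in place of 0.35 and Aurka at 0.10 in place of 0.34. Plk4, which starts centriole duplication, had a difference of 0.20 in combined cells (adjusted p = 0.147), 0.18 in Notch1-titled cells (adjusted p = 0.194) and 0.17 in Zmiz1-titled cells (adjusted p = 0.357), where it was 0.10 without that library. Melk had a difference of 0.21 in Notch1-titled cells (adjusted p = 0.0824). The chromosomal passenger complex, which corrects faulty attachments, had 0 of 3 genes called by limma. At an unadjusted p under 0.05 it had 2 in combined, 2 in Notch1-titled and 1 in Zmiz1-titled cells (0 without Zmiz1-titled replicate 2). Its kinase Aurkb had 87.7, 97.2 and 96.3 FPKM in combined libraries, 86.9, 97.7 and 103 FPKM in Notch1-titled libraries, 80.8, 103 and 91.0 FPKM in Zmiz1-titled libraries, and 75.1, 78.2 and 81.1 FPKM in control libraries. Its differences from the control were 0.26 in combined cells (adjusted p = 0.151), 0.29 in Notch1-titled cells (adjusted p = 0.112) and 0.22 in Zmiz1-titled cells (adjusted p = 0.344), or 0.13 without Zmiz1-titled replicate 2. Birc5, its survivin subunit, had a difference of 0.30 in combined cells (adjusted p = 0.131), 0.34 in Notch1-titled cells (adjusted p = 0.0861) and 0.17 in Zmiz1-titled cells (adjusted p = 0.555). With a term for the replicate 1 libraries, Aurkb passed in combined cells (adjusted p = 0.0169) and Notch1-titled cells (adjusted p = 0.0114), as did Birc5 (0.0127 in combined cells and 0.00717 in Notch1-titled cells).

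The 5 checkpoint genes, which delay anaphase, had 0 calls by limma, with medians of 0.14 in combined, 0.14 in Notch1-titled and 0.11 in Zmiz1-titled cells. At an unadjusted p under 0.05 there were 0 in combined, 1 in Notch1-titled and 0 in Zmiz1-titled cells. That 1 was Mad2l1, which binds and holds Cdc20, with a difference of 0.27 in Notch1-titled cells (95% interval 0.06 to 0.48, adjusted p = 0.141). With the term for the replicate 1 libraries, Mad2l1 passed in combined cells (adjusted p = 0.00988) and Notch1-titled cells (adjusted p = 0.00228), as did Bub1b, another checkpoint gene (0.0247 in combined cells and 0.0320 in Notch1-titled cells). The 6 kinesins had 0 calls by limma, with medians of 0.14 in combined, 0.10 in Notch1-titled and 0.22 in Zmiz1-titled cells (0.13 without Zmiz1-titled replicate 2). At an unadjusted p under 0.05 there were 1 in combined, 0 in Notch1-titled and 2 in Zmiz1-titled cells (1 without that library). Kif11, the motor that pushes spindle poles apart, had a difference of 0.25 in Zmiz1-titled cells (95% interval 0.06 to 0.44, adjusted p = 0.217), or 0.15 without that library. The 4 genes of spindle assembly and cytokinesis had 0 calls by limma, with medians of 0.19 in combined, 0.09 in Notch1-titled and 0.32 in Zmiz1-titled cells (0.22 without Zmiz1-titled replicate 2). At an unadjusted p under 0.05 there were 2 in combined, 0 in Notch1-titled and all 4 in Zmiz1-titled cells, or 2 of the 4 without that library. The 4 include Tpx2, which activates Aurka on the spindle, at 0.23 in Zmiz1-titled cells (adjusted p = 0.226). Without that library Tpx2 was at 0.15 (adjusted p = 0.424). Ect2, the exchange factor of the contractile ring, was at 0.26 in Zmiz1-titled cells (adjusted p = 0.240), or 0.18 without that library (adjusted p = 0.469). The 5 genes of the anaphase-promoting complex and sister separation had 0 calls by limma and 0 at an unadjusted p under 0.05 in each of the 3 groups, with medians of 0.13 in combined, 0.12 in Notch1-titled and 0.15 in Zmiz1-titled cells. Cdc20, an activator of the complex, had a difference of 0.17 in combined cells (95% interval -0.08 to 0.41), 0.12 in Notch1-titled cells (-0.13 to 0.37) and 0.18 in Zmiz1-titled cells (-0.07 to 0.42), or 0.08 without Zmiz1-titled replicate 2.

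Of the comparisons without the control, Notch1-titled against Zmiz1-titled cells had 2 of the 48 called, Cdc25b and Smc4, both lower, against 10.9% of tested genes called and 4.36% called lower. Both calls held in all 12 fits that each left out 1 library, and both were lost when only those 6 libraries were fitted, with adjusted p of 0.0525 and 0.0690. Combined against Zmiz1-titled cells had 0 called by limma, against 3.86% of tested genes, and 2 at an unadjusted p under 0.05, against 15.8%: Cdc25b at -0.24 (adjusted p = 0.143) and Smc4 at -0.33 (adjusted p = 0.0546). Both were lower, as were 5.59% of tested genes at that p. Combined against Notch1-titled cells had 0 called by limma, against 1.51% of tested genes, and at an unadjusted p under 0.05 had 1 higher, against 4.41%, and 0 lower, against 4.59%. The one higher was Cdc25b at 0.31 (adjusted p = 0.108). Without Zmiz1-titled replicate 2, Cdc25b passed in both of these comparisons, at -0.34 (adjusted p = 0.00314) and 0.31 (adjusted p = 0.00331), and it also passed at 0.24 in Zmiz1-titled against control cells (adjusted p = 0.0273). The interaction, which asks whether both vectors together differed from the sum of their single effects, had 0 of the 48 called by limma, against 0.0690% of tested genes, and 0 at an unadjusted p under 0.05, against 3.27%. Its value was above 0 for 4 of the 48, against 50.2% of tested genes, with a median of -0.15. That median was -0.10 without Zmiz1-titled replicate 2 and -0.19 without Zmiz1-titled replicate 1.

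Zmiz1-titled replicate 2 stood apart, for these genes and over all tested genes. It was the highest of the 12 libraries for 24 of the 48, against 22.6% of tested genes, and the lowest for 2, against 22.2%. It lay over 1.5 times the mean of the other 11 libraries for 4, against 4.07%. Ccnf, a cyclin that directs protein destruction, had 86.5 FPKM there, 1.80 times that mean, against 43.4 to 51.7 FPKM in the other 11. Plk1, a kinase of mitotic entry and spindle assembly, had 116 FPKM there, 1.63 times that mean, against 60.7 to 78.6 FPKM. Aurka, a spindle pole kinase, was 1.59 times and Kif20b 1.65 times that mean. Control libraries were the lowest of the 12 for 38 of the 48, against 21.6% of tested genes, and the highest for 0, against 14.5%. Control replicate 1 alone was lowest for 25, and for 914 of the 10152 tested genes. Without it, the fold change was above 0 for 44 of the 48 in combined cells, against 54.7% of tested genes, 38 in Notch1-titled cells, against 55.2%, and 45 in Zmiz1-titled cells, against 48.5%. Some genes were low in replicate 1 of every group, such as Incenp at 72.4 to 80.8 FPKM, against 87.6 to 118 FPKM elsewhere. Others were not, such as Ccnb1 at 225, 199 and 203 FPKM in control replicates 1, 2 and 3. The part of replicate number in these counts was not tested.

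**Figure D4:**
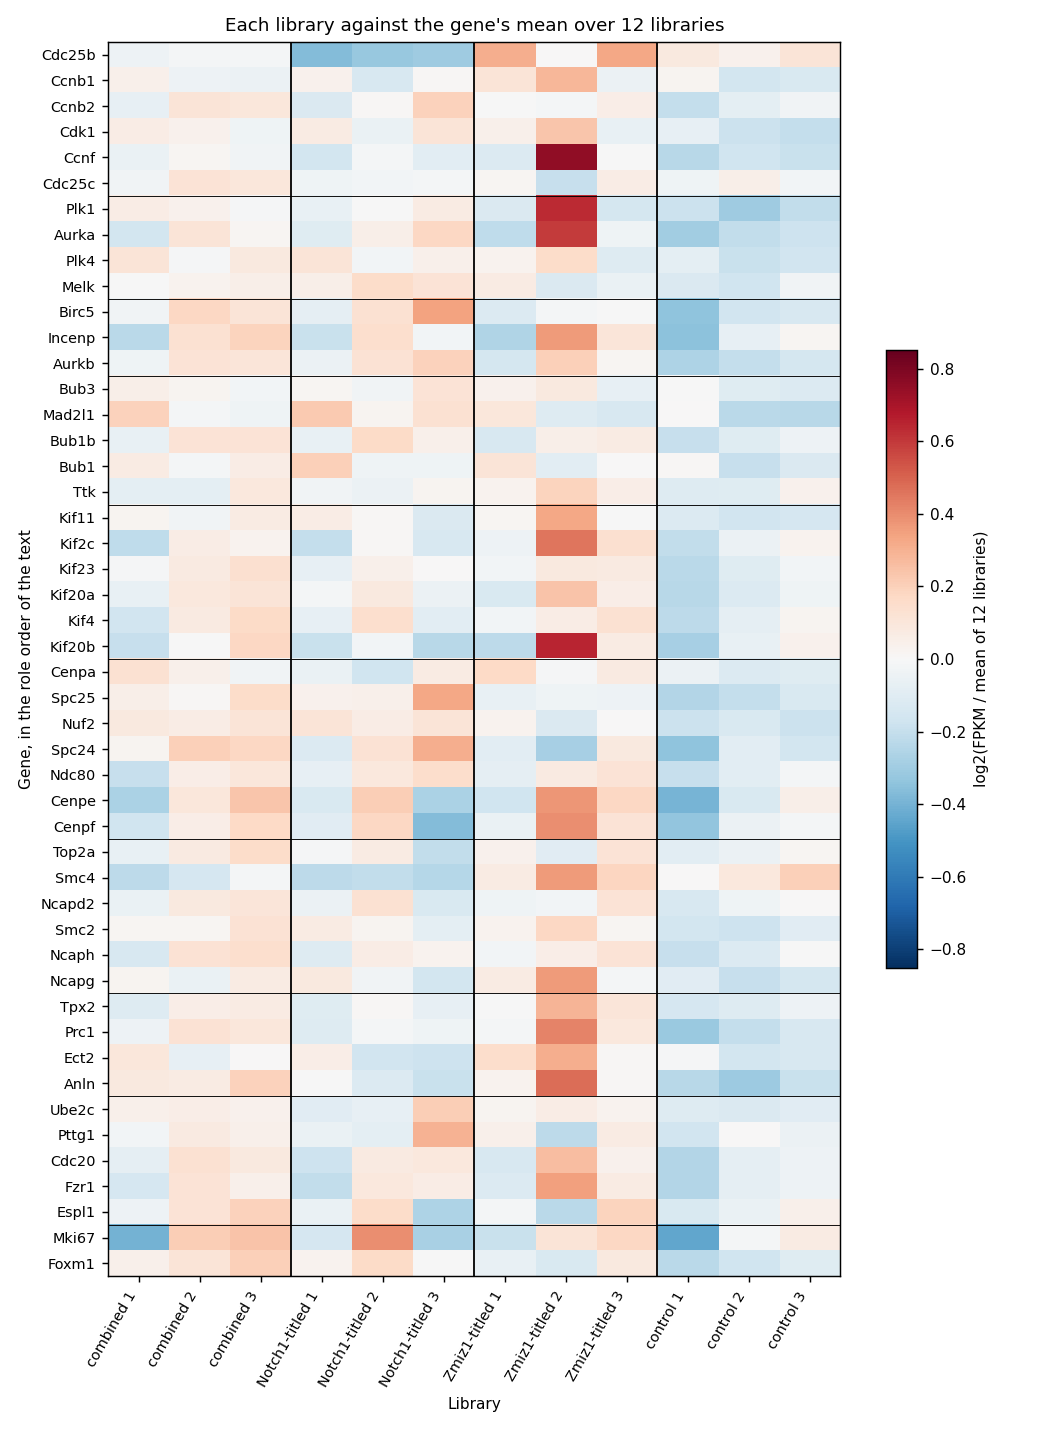
log2 of each library's FPKM over the gene's mean of the 12 libraries, for the 48 genes in role order (rows) and the libraries by group (columns). Zmiz1-titled replicate 2 is the highest library for 24 genes, and a control library is the lowest for 38.

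Notch1-titled replicate 3 differed from the other 2 libraries of its group with transcript length. Across the 48 genes, the deviation from the group mean and the longest transcript had a Spearman correlation of -0.85 in that library, and of 0.47 and 0.49 in Notch1-titled replicates 1 and 2. Across 9170 tested genes the same values were -0.71, 0.50 and 0.31. Deviations are taken from the mean of these same libraries. A trend in replicate 3 therefore brings an opposite trend, on average, in replicates 1 and 2. Genes and libraries here share depth and normalization, and these are descriptions. The short transcripts of Spc25, Pttg1, the securin, and Spc24 lay 0.19, 0.24 and 0.20 above the group mean in that library, and the long ones of Cenpf, a centromere protein, and Mki67, the proliferation marker Ki-67, lay 0.26 and 0.27 below it. Its part in the Spc25 call was not tested beyond the value without that library.

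**Figure D5:**
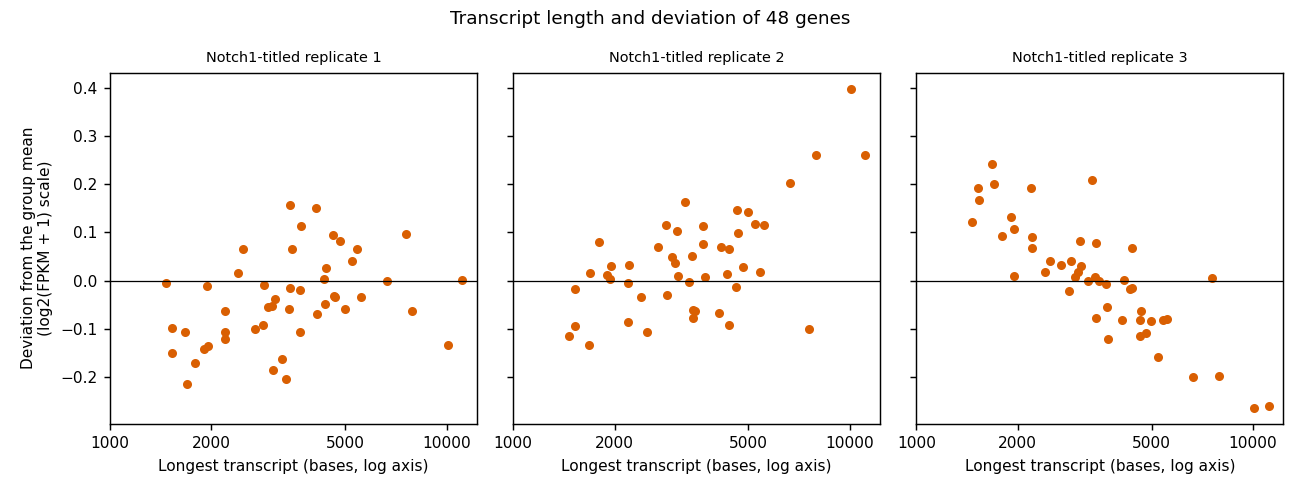
Deviation of the 48 genes from the Notch1-titled mean on the log2(FPKM + 1) scale against the length of the longest transcript (log axis), for each of the 3 Notch1-titled libraries. The Spearman correlation is -0.85 in replicate 3, and 0.47 and 0.49 in replicates 1 and 2. Deviations are from the mean of these same libraries, so the correlations are not independent of each other.

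Other genes of the cycle are given by list, against the control. Of all tested genes, 6.46% were called in combined cells, 5.49% in Notch1-titled cells and 2.11% in Zmiz1-titled cells, and 19.1% in combined, 18.8% in Notch1-titled and 12.8% in Zmiz1-titled cells had an unadjusted p under 0.05. Of 32 other spindle and cytokinesis genes tested, 0 were called by limma in combined cells, 1 in Notch1-titled cells and 0 in Zmiz1-titled cells. At an unadjusted p under 0.05 there were 8 in combined, 8 in Notch1-titled and 15 in Zmiz1-titled cells, or 9 in Zmiz1-titled cells without Zmiz1-titled replicate 2. Their median differences were 0.14 in combined, 0.11 in Notch1-titled and 0.20 in Zmiz1-titled cells (0.14 without Zmiz1-titled replicate 2). The one called was Sgol1, a shugoshin that protects cohesion, which rose by 0.23 in Notch1-titled cells. Of 25 other kinetochore and centromere genes, 0 were called in combined cells, 1 in Notch1-titled cells and 1 in Zmiz1-titled cells, where it was 0 without Zmiz1-titled replicate 2. The counts at an unadjusted p under 0.05 were 4 in combined, 8 in Notch1-titled and 6 in Zmiz1-titled cells (8 without that library). The called genes were Cenpn at 0.25 in Notch1-titled cells and Dsn1 at 0.23 in Zmiz1-titled cells. Of 15 further genes of the anaphase-promoting complex and its partners, 1 was called in combined, 1 in Notch1-titled and 0 in Zmiz1-titled cells, where 1 had an unadjusted p under 0.05 (0 without Zmiz1-titled replicate 2). The called gene was Anapc5 in both, a subunit of the complex, which rose by 0.23 in combined cells and by 0.27 in Notch1-titled cells. Of 16 cohesin and condensin II genes, 0 were called by limma in each. At an unadjusted p under 0.05 there were 2 in combined, 2 in Notch1-titled and 4 in Zmiz1-titled cells (1 without Zmiz1-titled replicate 2).

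Of 20 MuvB, E2F and Myb regulators, 2 were called in combined, 1 in Notch1-titled and 1 in Zmiz1-titled cells. These were Mybl2, which encodes B-MYB, at 0.34 and E2f1 at 0.33 in combined cells, E2f1 at 0.33 in Notch1-titled cells and E2f2 at 0.33 in Zmiz1-titled cells. Of 35 DNA replication genes, 6 rose in combined cells, 9 rose in Notch1-titled cells and 0 were called by limma in Zmiz1-titled cells, against 3.97% called higher in combined cells, 3.19% called higher in Notch1-titled cells and 2.11% called in Zmiz1-titled cells over all tested genes. At an unadjusted p under 0.05 there were 25 in combined, 28 in Notch1-titled and 8 in Zmiz1-titled cells (9 without Zmiz1-titled replicate 2). Their median differences were 0.20 in combined, 0.22 in Notch1-titled and 0.11 in Zmiz1-titled cells. Tk1, the thymidine kinase, had 98.4, 109.8 and 102 FPKM in combined libraries, 101, 113 and 123 FPKM in Notch1-titled libraries, 82.0, 85.3 and 87.7 FPKM in Zmiz1-titled libraries, and 75.9, 79.4 and 79.8 FPKM in control libraries. It rose by 0.40 in combined cells and by 0.51 in Notch1-titled cells.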

How the data were processed

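Reads from poly(A) libraries (TruSeq mRNA v2, a kit that does not mark strand) had been processed by the authors; the submitters' processing notes name Cuffdiff 2.1.1, Cufflinks, Bowtie2 2.1.0.0, TopHat2 2.0.9, FastQC 0.10.0 and the mm10 build. The authors deposited 1 table of FPKM values per library for 23284 gene symbols. The tables hold no counts, so total depth is unknown, and FPKM sums were 549098 to 606908 per library. Symbols averaging 1 FPKM or more across libraries (10152, with all 48 genes) were fitted with limma 3.58.1 in R 4.3.3 on log2(FPKM + 1), with 4 group means, trended empirical Bayes variances and 7 comparisons. Fold changes on that scale understate those of low genes. Tests are two-sided, and p-values were adjusted by Benjamini-Hochberg over all tested genes. The fit was tested on simulated data, which held independent values and no library that stood apart. The planted changes were larger than any difference of the 48 genes, so the simulation does not speak to changes of the sizes found here. Single exact permutation tests of 3 against 3 libraries cannot go below 0.1. Gene positions come from GENCODE M21 and promoters from RefSeq. All 48 genes could be named, and in each other list up to 4 called genes with the largest change. The genes and lists were chosen with earlier results of these data known. Alternatives were another pseudocount, filter, scaling, variance estimate or set of groups, a replicate block, and each library left out. The low values of replicate 1 libraries share steps with each other, as do those of replicates 2 and 3, and fewer across these sets. For a pair of libraries, the share of low genes at the most common ratio was 6.80% to 17.9% within a set and 2.62% to 3.80% across sets. Depth relative to its set, estimated from these steps, was 0.79 for Zmiz1-titled replicate 2. It was 0.93 to 1.15 for the other libraries of replicates 2 and 3. Fits by these sets, and without both Zmiz1-titled replicate 2 and Notch1-titled replicate 3, were added after seeing the data.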

Additional observations from a re-analysis of the deposited data

How the results depend on the processing

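No fold change of the 24 gene and comparison pairs recomputed changed direction under any alternative. These pairs were picked, mostly for called genes or larger differences, and cover Cdc25b, Smc4, Nuf2, Spc25, Foxm1, Prc1, Plk1, Ccnf, Aurka, Kif20b, Aurkb and Birc5. Directions did change outside them. The Cdc25c difference of Zmiz1-titled from control cells went from -0.03 to 0.04 without Zmiz1-titled replicate 2. The number of the 48 genes called did change. In Notch1-titled against control cells, where 4 were called, it was 3 with no filter or a filter at 5 FPKM (without Smc4), 6 without Zmiz1-titled replicate 2 and Notch1-titled replicate 3, 2 after quantile normalization or with only those groups fitted, 9 with a replicate block or a term for the replicate 1 libraries (adding Aurkb, Birc5, Bub1b, Mad2l1 and Ndc80 in both), 0 with only replicates 2 and 3, and 0 to 7 with 1 library left out. In Zmiz1-titled against control cells, where 0 were called, it was 1 with the block (Prc1), 2 with the replicate 1 term, 2 without Zmiz1-titled replicate 2 and Notch1-titled replicate 3, and 0 to 1 with 1 library left out. In combined against control cells, where 2 were called, it was 1 with a pseudocount of 0.1, no filter, a filter at 5 FPKM or median ratio scaling (Nuf2, without Foxm1), 0 after quantile normalization or with only replicates 2 and 3, 8 with the block (adding Aurkb, Birc5, Bub1b, Kif23, Mad2l1 and Spc25), 9 with the replicate 1 term (adding these and Prc1), 11 without those 2 libraries, 12 with only those groups fitted, and 0 to 6 with 1 library left out. In combined against Zmiz1-titled cells, where 0 were called, it was 1 with median ratio scaling, the block, robust variances, the replicate 1 term or without those 2 libraries, and 0 to 1 with 1 library left out. In combined against Notch1-titled cells, where 0 were called, it was 1 without those 2 libraries, and 0 to 1 with 1 library left out. In Notch1-titled against Zmiz1-titled cells, where 2 were called, it was 4 with the block, 6 with the replicate 1 term, 1 with only replicates 2 and 3, 0 with only those groups fitted, and 2 in each fit with 1 library left out. The interaction had 0 with 1 library left out. The cause of these changes was not tested. Fits with fewer libraries have fewer degrees of freedom, and the counts rose in some of those fits and fell in others. The terms for the replicate 1 libraries, the replicate 2 and 3 fits and the fits without both libraries were chosen after seeing the data. The replicate numbers were not taken to pair the libraries. The reason was that 6 of 18 same-numbered pairs had a correlation of deviations over 0.1 (range -0.18 to 0.27). For 9 of 12 libraries, however, the mean correlation with libraries of other groups was highest for those of their own number. Pairs of replicate 1 libraries ran from -0.04 to 0.27. The main fit has no term for a replicate 1 set, and with such a term more of the 48 genes passed in each comparison with the control. Within replicate 1 libraries the Cdc25b difference of Notch1-titled from control cells was -0.45 and within replicates 2 and 3 it was -0.38, for Smc4 -0.22 and -0.37, for Nuf2 0.29 and 0.24, and for Spc25 0.28 and 0.35. For combined against control cells these were 0.27 and 0.28 for Foxm1 and 0.26 and 0.24 for Nuf2. The unknown depth limits all of these values.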
